A study of Mus musculus with 32 samples.

Results

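Small proteoglycans and matrix glycoproteins are secreted proteins that sit between the fibres of the extracellular matrix. The 10 genes examined here, of 24646 measured, were picked by name: Dcn, Bgn, Lum, Fmod, Prelp and Ogn encode small leucine-rich proteoglycans, and Ecm1, Tgfbi, Fbln1 and Sparc encode glycoproteins of the same matrix. The choice was made from the genotype difference of Dcn and Lum in liver set beside that in fat, so those values, and every value of the 10 genes in liver, are given as a description, with no p for any of them. Dcn matched that description. Lum did not, since its difference between genotypes was larger in epididymal fat than in liver, and its level in liver lay below the median of all genes.

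The mice were males on a C57BL/6J background, aged 20 weeks, either wild type (Gpr146+/+) or whole-body knockout (Gpr146-/-) littermates. All had 3 months of high fat diet (HFD) and were collected after an overnight fast, so no chow-fed or fed animal enters any comparison. The organs were liver, the epididymal fat pad (eWAT, a visceral white depot), the inguinal fat pad (iWAT, a subcutaneous white depot) and brown fat (BAT), each measured in 4 mice per genotype, 1 microarray per mouse and tissue, 32 arrays in all. The deletion was present in every cell of the knockout mice, so an effect of its loss in one tissue cannot be told apart from that of its loss in another. Whether mouse number 1 of one tissue is the same animal as number 1 of another is not given in the sources used here.

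Gpr146 itself was lower in every knockout array of all 4 tissues, at 4.26 to 4.63 against 6.17 to 6.32 (log2) in liver, where the titles of the 4 knockout samples call them wild type while their genotype labels say knockout. The mean of 5 hepatocyte marker genes was 10.7 to 10.8 in every liver array, the mean of 6 adipocyte genes was between 8.99 and 10.2 in the white depots, and the mean of 4 brown adipocyte genes was between 7.67 and 8.72 in BAT against 2.30 to 3.99 in the white depots. Skeletal muscle genes were high in 3 of the BAT arrays, with means of 7.30 and 8.05 in wild-type mice 2 and 3 and 8.19 in knockout mouse 2, against 3.17 to 4.28 in the others. Lymphocyte genes were high in 4 of the iWAT arrays, with means of 8.08, 8.07, 7.69 and 5.73 in wild-type mice 1 and 2 and knockout mice 2 and 4, against 3.18 to 3.34 in the others. These arrays are named again where they touch a result.

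Small leucine-rich proteoglycans have a curved core of leucine-rich repeats that binds collagen and holds sugar chains away from it, and several of them also bind growth factors such as TGF-beta. Decorin and biglycan (class I) carry chondroitin or dermatan sulfate chains, lumican, fibromodulin and prolargin (class II) include proteins with keratan sulfate, and osteoglycin (class III) is also called mimecan. In liver such proteins are made mainly by stellate cells and portal fibroblasts, and in fat by fibroblasts and adipocyte progenitors, so a bulk array reads them from a minor share of the cells. In bulk tissue, fewer cells of a type and less RNA per cell cannot be told apart.

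In the mouse genome (GRCm38.p6, RefSeq), 5 of the 6 small proteoglycan genes lie in 3 clusters with relatives of the same family. Dcn (chromosome 10, 97479500 to 97518163) and Lum (97565501 to 97572703) are followed by Kera and Epyc within 202.4 kb. Fmod (chromosome 1, 134037254 to 134048280) and Prelp (133910304 to 133930102) lie beside Optc within 151.1 kb. Ogn (chromosome 13, 49608015 to 49624501) closes a run of Ecm2, Aspn and Omd over 119.7 kb. Bgn is on chromosome X, from 73483601 to 73495936. Of the glycoprotein genes, Tgfbi is on chromosome 13 (56609586 to 56639359), Ecm1 on chromosome 3 (95734147 to 95739876), Fbln1 on chromosome 15 (85205949 to 85286294) and Sparc on chromosome 11 (55394159 to 55420080).

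RefSeq promoter windows were matched for 8 of the 10 genes. The 250 bases before each start were searched on both strands for a GC box (GGGCGG, held by 32.7% of 32851 windows), a TATA box (TATAAA, 12.4%), an AP-1 site (TGANTCA, 6.75%), the SMAD palindrome (GTCTAGAC, 0.167%) and a PPAR response element (AGGTCA repeated in the same direction with any base between the copies, 0.0335%). The GC box was found before Bgn, Ecm1, Tgfbi and the inner start of Fbln1, the TATA box before Ecm1 and Ogn, and the AP-1 site before Ecm1 alone of the 8 genes. The TATA letters begin 27 bases before the start in Ecm1, but 229 and 227 bases before it in Ogn. No match of these letters was found before Fmod, Prelp or Sparc. The windows of Bgn and Tgfbi are shown because these genes passed the test in eWAT, were lower in every knockout liver and have a window at the outermost annotated start of the gene. Ecm1 met the first 2 of these conditions but not the last. Each line gives the 130 bases that end just before the annotated start, read 5′ to 3′ on the plus strand, at chrX:73483471-73483600 for Bgn and chr13:56609456-56609585 for Tgfbi, with GC boxes of either strand in capitals.
Bgn: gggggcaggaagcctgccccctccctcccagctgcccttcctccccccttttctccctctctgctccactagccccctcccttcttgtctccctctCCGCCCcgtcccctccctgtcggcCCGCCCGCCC
Tgfbi: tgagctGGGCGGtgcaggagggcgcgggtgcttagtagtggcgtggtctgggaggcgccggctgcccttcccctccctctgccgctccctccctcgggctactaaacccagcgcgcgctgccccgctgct
In Bgn the GC boxes begin 34, 10 and 6 bases before the start, the last pair sharing bases, and all are read on the minus strand. In Tgfbi the match begins 124 bases before the start. A match is a description of the letters and not of a bound site.

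In liver, the class I proteoglycans and 2 of the glycoproteins had the largest differences between genotypes. Dcn, the collagen-binding proteoglycan decorin, measured 7.84, 8.17, 7.43 and 8.11 (log2) in wild-type mice 1 to 4 and 5.14, 6.74, 5.59 and 5.85 in knockout mice 1 to 4. The lowest wild-type mouse thus stood above the highest knockout mouse. The difference, knockout minus wild type, was -2.06 on the log2 scale (standard error 0.285), or 4.17-fold less. Biglycan, the closest relative of decorin, is encoded by Bgn, which measured 6.33, 6.59, 6.33 and 6.69 in wild-type and 4.91, 6.22, 5.28 and 5.75 in knockout mice. Its groups did not overlap either, but knockout mouse 2 lay just under the wild-type range. The difference was -0.95 (standard error 0.229).

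**Figure D1:**
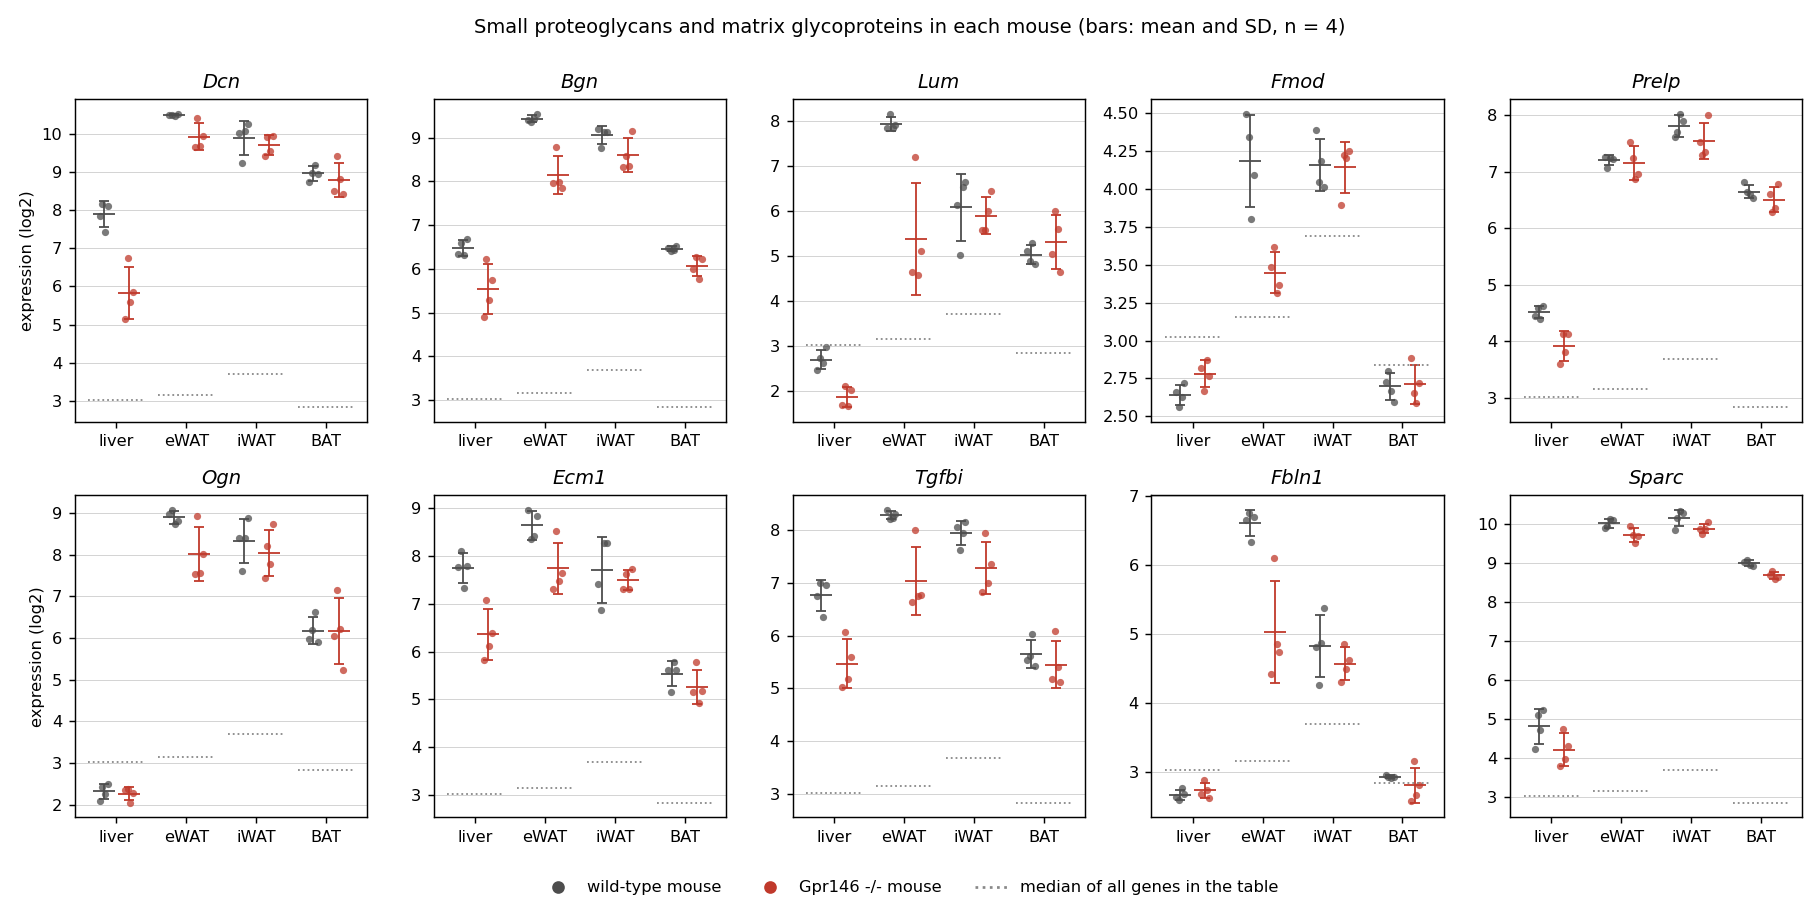
Expression (log2) of the 10 genes in each mouse, by tissue, with wild-type mice in grey and Gpr146-/- mice in red. Bars give the mean and SD of 4 mice and dotted lines the median of all genes in that table. The tables were normalized separately, so levels should be compared within a tissue. In liver all 4 knockout mice sit below all 4 wild-type mice for Dcn, Bgn, Lum, Prelp, Ecm1 and Tgfbi.

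Of the class II genes, Lum and Fmod were under the median of all genes in liver and Prelp was above it. Lum, which encodes lumican, a keratan sulfate proteoglycan known from the cornea, measured 2.45, 2.73, 2.61 and 2.96 in wild-type livers and 1.67, 2.10, 1.67 and 2.01 in knockout livers. The groups were apart, by -0.83 (standard error 0.131), yet all 8 values were under the table's median of 3.02. No detection call was used here, so whether these values exceed the array's background is not known. Prelp encodes prolargin, which ties basement membranes to connective tissue. It measured 4.44, 4.59, 4.40 and 4.63 in wild-type and 3.60, 4.13, 3.81 and 4.13 in knockout livers, a difference of -0.60 (standard error 0.122) with no overlap. Fmod, which encodes the collagen fibril regulator fibromodulin, measured 2.56 to 2.72 in wild-type and 2.66 to 2.87 in knockout livers, a difference of 0.14 (standard error 0.075) with overlapping groups. Ogn of class III also overlapped, at 2.10 to 2.49 and 2.05 to 2.38. Both were under the table's median in wild-type livers.

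Among the glycoproteins, Ecm1 and Tgfbi followed Dcn in size. Ecm1 encodes extracellular matrix protein 1, which binds perlecan and other matrix components. It measured 7.76, 8.11, 7.32 and 7.79 in wild-type and 5.83, 7.09, 6.12 and 6.39 in knockout livers. Every knockout value was below every wild-type value, with a difference of -1.39 (standard error 0.239), or 2.62-fold. Tgfbi encodes a collagen- and integrin-binding protein induced by TGF-beta. It measured 6.75, 6.99, 6.35 and 6.96 in wild-type and 5.04, 6.06, 5.18 and 5.59 in knockout livers. These groups were also apart, by -1.30 (standard error 0.212), or 2.46-fold. Sparc, which encodes the collagen-binding matricellular protein osteonectin, measured 4.23, 5.11, 4.70 and 5.21 in wild-type and 3.79, 4.74, 3.96 and 4.31 in knockout livers. Its groups overlapped, with a difference of -0.61 (standard error 0.235). Fbln1, which encodes the elastic fibre and basement membrane protein fibulin-1, was under the median of all genes at 2.59 to 2.77 in wild-type and 2.62 to 2.88 in knockout livers.

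By limma, a linear model per gene with moderated variances, and a Benjamini-Hochberg adjusted p under 0.05 over all genes of the table, 4 of the 10 genes were called in liver, all lower in knockout mice (Dcn, Lum, Ecm1 and Tgfbi), where 0.661% of all genes were called and 0.499% were called lower. All knockout values were below all wild-type values for 6 of the 10, against 4.16% of all genes. Since the liver contrast chose the genes, nothing is read from these counts. The count was 2 without wild-type mouse 1, 3 or 4, 1 without wild-type mouse 2, 1 without knockout mouse 1, 2 without knockout mouse 3, 0 without knockout mouse 4 and 6 without knockout mouse 2, where 1.22% of all genes were called. The median difference of the 10 genes was -0.72, and that of all genes was 0.01.

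In eWAT the 10 genes were all above the table's median in wild-type mice and the mean of every one was lower in knockout mice. Of the 8 genes whose differences there did not enter the choice, 5 fell (Bgn, Fmod, Ecm1, Tgfbi and Fbln1) and none rose, where 15.2% of all genes were called and 10.7% were called lower. All knockout values were below all wild-type values for 4 of the 8, against 13.0% of all genes. The median difference of all 10 genes was -0.89, and that of all genes was 0.03. This median and the lower means of all 10 include Dcn and Lum, whose differences entered the choice, so nothing is read from them.

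Bgn measured 9.41, 9.35, 9.43 and 9.55 in wild-type eWAT and 7.97, 8.80, 7.998 and 7.84 in knockout eWAT. The wild-type mice lay close together while knockout mouse 2 stood well above the other 3. The difference was -1.28 (standard error 0.188, adjusted p = 0.00828 by limma), or 2.43-fold. Fmod measured 4.50, 4.34, 3.81 and 4.10 in wild-type and 3.48, 3.62, 3.31 and 3.37 in knockout eWAT. The groups were apart, by -0.74 (standard error 0.146, adjusted p = 0.0134 by limma). Fmod is the class II gene that in liver was low and slightly higher in knockout mice. Prelp, its neighbour on chromosome 1, did not pass the test in eWAT, with 7.07 to 7.27 in wild-type and 6.88 to 7.53 in knockout mice (difference -0.05, 95% interval -0.36 to 0.26, adjusted p = 0.845 by limma). Ogn measured 8.96, 9.08, 8.73 and 8.82 in wild-type and 7.54, 8.92, 7.55 and 8.01 in knockout eWAT. Knockout mouse 2 lay inside the wild-type range and the other 3 below it, and the gene did not pass the test (difference -0.89, adjusted p = 0.0575 by limma). Without knockout mouse 2 it did (difference -1.19, adjusted p = 0.000334).

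Fbln1 had the largest difference of the tested genes in eWAT. It measured 6.65, 6.75, 6.33 and 6.70 in wild-type and 4.41, 6.09, 4.85 and 4.74 in knockout mice. Again the groups were apart and knockout mouse 2 was the highest of the 4. The difference was -1.58 (standard error 0.309, adjusted p = 0.0129 by limma), or 3.00-fold. Tgfbi measured 8.38, 8.21, 8.23 and 8.29 in wild-type and 6.63, 7.999, 6.75 and 6.76 in knockout mice. The difference was -1.24 (standard error 0.266, adjusted p = 0.017 by limma). This call was lost, narrowly, without wild-type mouse 2 (adjusted p = 0.0506) or 4 (0.0507). Ecm1 measured 8.97, 8.35, 8.41 and 8.84 in wild-type and 7.31, 8.52, 7.48 and 7.65 in knockout mice. Its groups overlapped through knockout mouse 2, and its adjusted p of 0.0426 by limma (difference -0.90, standard error 0.255) rose to between 0.0675 and 0.115 when any other single mouse was left out, and to 0.0622 after quantile normalization of the arrays. Sparc measured 9.90 to 10.12 in wild-type and 9.52 to 9.95 in knockout mice and did not pass the test (difference -0.31, adjusted p = 0.0763 by limma), though it did without knockout mouse 1 (difference -0.38, adjusted p = 0.0436).

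Dcn and Lum, given here without a test, differed in eWAT in the opposite order of size to liver. Dcn measured 10.51, 10.50, 10.48 and 10.53 in wild-type and 9.66, 10.41, 9.68 and 9.95 in knockout eWAT. The wild-type values were nearly equal, and knockout mouse 2 was just below them. The difference was -0.58 (standard error 0.153), or 1.49-fold. Lum measured 7.82, 8.15, 7.83 and 7.91 in wild-type and 4.63, 7.19, 4.56 and 5.09 in knockout eWAT. Knockout mouse 2 was close to the wild-type group while the other 3 were far below. The difference was -2.56 (standard error 0.500), or 5.89-fold.

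**Figure D2:**
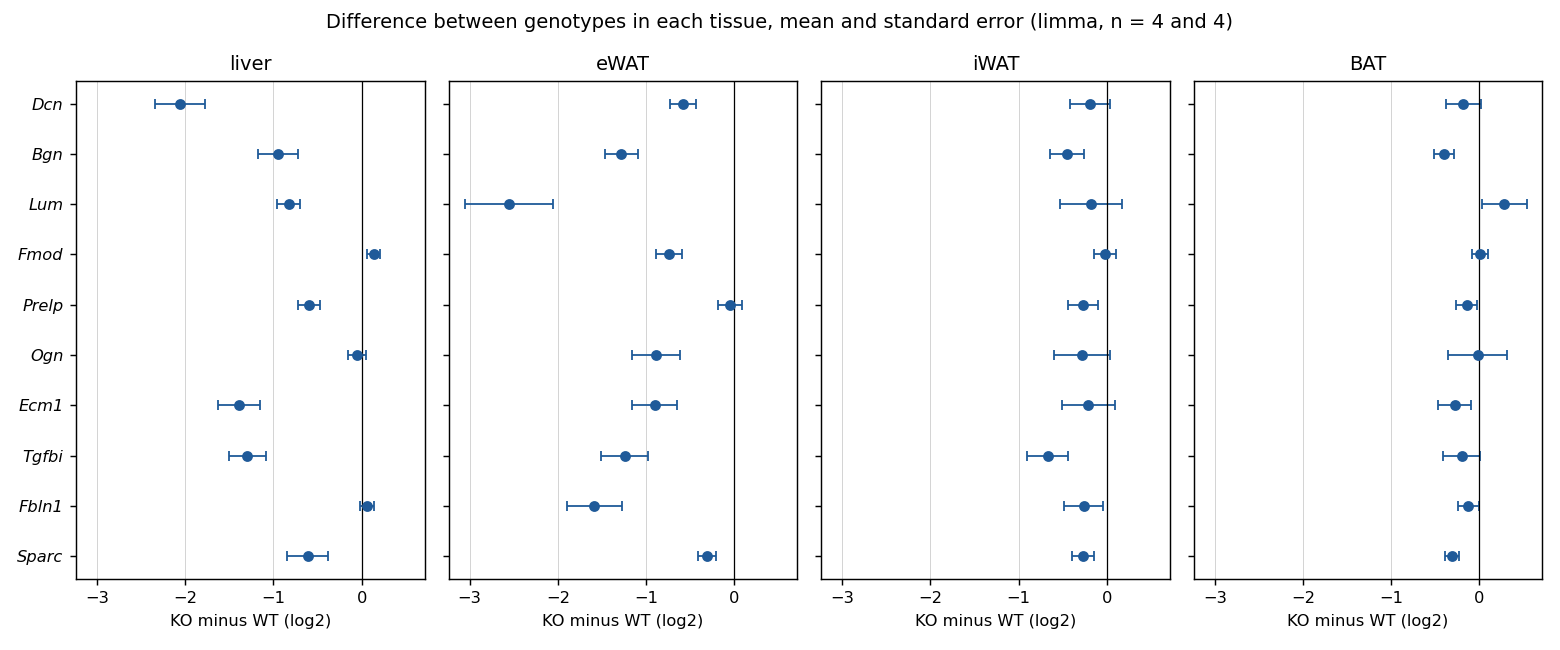
Difference between genotypes, knockout minus wild type on the log2 scale, of each gene in each tissue, with its standard error from limma (4 mice per genotype). Dcn has its largest difference in liver, -2.06, and Lum in eWAT, -2.56, while all differences in iWAT and BAT lie between -0.67 and 0.29.

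Set side by side, the difference of Dcn was -2.06 in liver, -0.58 in eWAT, -0.19 in iWAT and -0.18 in BAT. That of Lum was -0.83 in liver, -2.56 in eWAT, -0.18 in iWAT and 0.29 in BAT. For Bgn the order was eWAT (-1.28), liver (-0.95), iWAT (-0.45) and BAT (-0.40), and for Tgfbi liver (-1.30), eWAT (-1.24), iWAT (-0.67) and BAT (-0.20). Ecm1 was lower by more in liver (-1.39) than in eWAT (-0.90). Fmod, Ogn and Fbln1, which lay under the table's median in liver, had differences of 0.14, -0.05 and 0.06 there and of -0.74, -0.89 and -1.58 in eWAT. The tables were normalized separately, and these differences between tissues were not tested.

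In iWAT none of the 8 tested genes passed the test, and neither did any other gene (0.0% called by limma). Without adjustment Bgn and Tgfbi were under 0.05, as were 15.4% of all genes. All 10 means, those of Dcn and Lum included, were lower in knockout mice, from -0.67 for Tgfbi to -0.02 for Fmod. Since Dcn and Lum entered the choice, nothing is read from the lower means of all 10. No gene had groups that were apart, against 3.86% of all genes with every knockout value below every wild-type value. Tgfbi measured 8.05, 7.62, 7.94 and 8.14 in wild-type and 6.83, 7.93, 6.98 and 7.34 in knockout iWAT (adjusted p = 0.260 by limma, 95% interval of the difference -1.19 to -0.15). Bgn measured 9.21, 8.76, 9.13 and 9.14 in wild-type and 8.32, 8.58, 8.36 and 9.16 in knockout iWAT (adjusted p = 0.310 by limma). In each gene 1 knockout mouse reached the wild-type values, mouse 2 for Tgfbi and mouse 4 for Bgn. Dcn measured 10.02, 9.25, 10.09 and 10.25 in wild-type and 9.42, 9.93, 9.56 and 9.94 in knockout iWAT. Lum measured 6.11, 5.002, 6.52 and 6.64 in wild-type and 5.58, 5.57, 5.98 and 6.43 in knockout iWAT. Wild-type mouse 2 was thus the lowest of all 8 for both. It was also among the arrays with high lymphocyte genes, as were knockout mice 2 and 4 and wild-type mouse 1. In wild-type mouse 1 Dcn was at 10.02 and Lum at 6.11. The part of the lymphocyte genes in the result was not tested. For the 6 remaining genes the adjusted p ranged from 0.338 (Sparc) to 0.956 (Fmod).

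In BAT none of the 8 tested genes passed the test either, where 0.0284% of all genes did. Without adjustment Bgn and Sparc were under 0.05, as were 12.7% of all genes, and these were also the genes whose groups did not overlap, against 3.92% of all genes. Bgn measured 6.49, 6.41, 6.43 and 6.53 in wild-type and 6.00, 6.26, 5.77 and 6.22 in knockout BAT (difference -0.40, standard error 0.112, adjusted p = 0.177 by limma). Sparc measured 9.03, 9.07, 8.94 and 8.91 in wild-type and 8.69, 8.81, 8.59 and 8.64 in knockout BAT (difference -0.31, standard error 0.082, adjusted p = 0.164 by limma). Both differences were small and every knockout value was below every wild-type value. Dcn measured 8.73, 8.99, 9.19 and 8.95 in wild-type and 8.50, 9.41, 8.81 and 8.42 in knockout BAT, and Lum 5.11, 4.89, 5.28 and 4.81 against 5.04, 5.98, 5.59 and 4.63. The highest value of each gene was that of knockout mouse 2, an array with high skeletal muscle genes. Wild-type mice 3 and 2, the other arrays with high skeletal muscle genes, had the next highest Dcn (9.19 and 8.99). The next highest Lum was that of knockout mouse 3 (5.59), which is not such an array. The part of the skeletal muscle genes in these values was not tested. For the 6 remaining genes the adjusted p ranged from 0.588 (Ecm1) to 0.992 (Ogn).

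The knockout arrays numbered 2, which may or may not come from a single animal, stood apart for these genes in several tissues. Number 2 was the highest of the 4 knockout mice for 8 of the 10 genes in liver, in eWAT and in BAT, and for 2 in iWAT, while number 2 was the highest for 23.7% to 27.5% of all genes. This was not particular to the 10 genes. The mean of the 111 related genes described below was also highest on knockout array 2 in liver (3.71), eWAT (5.40) and BAT (4.18), but not in iWAT. In BAT that array also had high skeletal muscle genes (mean 8.19), and their part was not tested. The mean shift of the 10 genes from the wild-type mean was -0.35 in knockout mouse 2 and between -1.07 and -0.68 in the other knockout livers. In eWAT it was -0.32 in knockout mouse 2 and between -1.31 and -1.16 in the others. Gpr146 was no higher on the array numbered 2 than in the other knockout mice of liver (4.26) and eWAT (3.63), while in BAT its value on that array was the highest of the 4 (4.69). Without the array numbered 2 the differences of Dcn and Lum were -2.36 and -0.91 in liver and -0.74 and -3.17 in eWAT. In eWAT 6 of the 8 tested genes were called without that array, where 22.0% of all genes were.

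**Figure D3:**
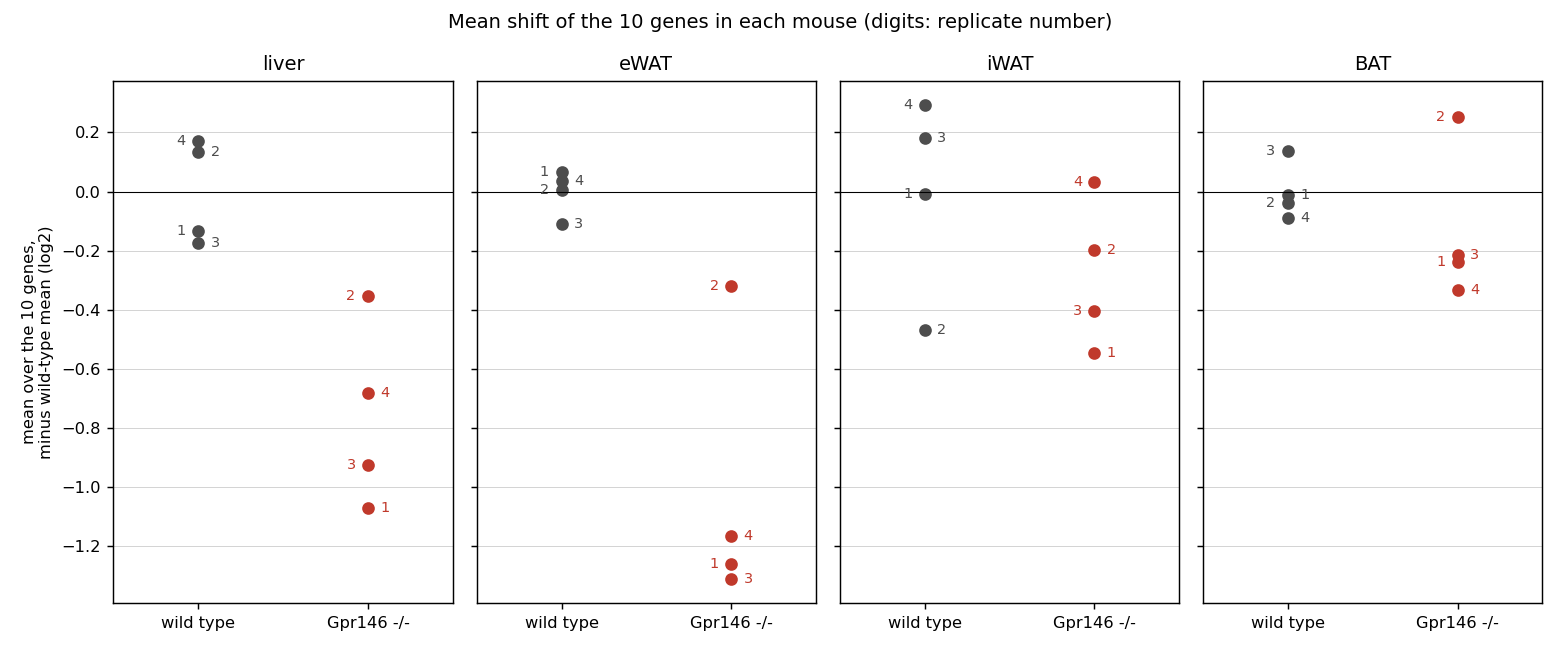
Mean over the 10 genes of each mouse's expression minus the wild-type mean (log2), by tissue and genotype, with digits giving the replicate number. Knockout mouse 2 is the knockout mouse nearest to the wild-type mean in liver (-0.35) and eWAT (-0.32). In BAT the knockout mouse numbered 2, whose array had high skeletal muscle genes, lies above every wild-type mouse.

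The relatives of these genes were taken from lists of 111 measured genes that hold none of the 10. In liver 2 of them were called, both lower in knockout mice, and none higher, where 0.661% of all genes were called, and the median difference was -0.04, against 0.01 for all genes. Igfbp7, which encodes a secreted binding protein of insulin-like growth factors, measured 6.89, 7.31, 6.98 and 7.20 in wild-type and 5.14, 6.21, 5.20 and 5.53 in knockout livers (difference -1.57, standard error 0.205, adjusted p = 0.00906 by limma). Kdr, which encodes the VEGF receptor to which decorin can bind, measured 5.84, 5.93, 6.04 and 5.98 in wild-type and 4.68, 5.51, 4.90 and 5.24 in knockout livers (difference -0.86, adjusted p = 0.0317 by limma). In both genes the groups were apart and knockout mouse 2 was the highest of its group. Igfbp7 stayed under the threshold whichever mouse was left out, whereas Kdr rose to between 0.0568 and 0.108 without any single mouse but knockout mouse 2 and to 0.0570 after quantile normalization. Without knockout mouse 2, 11 of the 111 were called in liver, where 1.22% of all genes were called. None of the 12 other small leucine-rich proteoglycans was called there by limma, and without adjustment Tsku alone was under 0.05, at -0.93 (adjusted p = 0.157). The cluster neighbours of Dcn and Lum, Kera and Epyc, were under the table's median in liver and differed by 0.10 (adjusted p = 0.776) and -0.04 (adjusted p = 0.886).

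In eWAT 42 of the 111 relatives fell and 2 rose, where 10.7% of all genes were called lower and 15.2% were called in either direction, and their median difference was -0.36, against 0.03 for all genes. The counts of the lists that follow stand beside the same shares. Left out one at a time, the mice gave between 17 (without wild-type mouse 2) and 62 (without knockout mouse 2) called genes, with 27 without wild-type mouse 1, 18 without wild-type mouse 4, 26 without knockout mouse 1 and 23 without knockout mouse 4. Without knockout mouse 2, 22.0% of all genes were called, and the share without each other mouse is not given here. Of 18 genes of fibulins, fibrillins and elastic fibres 9 fell, among them Mfap5, a microfibril protein, which measured 8.001 to 8.68 in wild-type and 6.16, 7.64, 6.32 and 6.19 in knockout eWAT (difference -1.79, standard error 0.313, adjusted p = 0.0103 by limma). Of 18 other matrix glycoproteins 9 fell, and of 19 large and cell surface proteoglycans 9 fell, with Prg4, the lubricating proteoglycan lubricin, at -1.49 (adjusted p = 0.0121). In the SPARC family 1 of 7 fell, Fstl1, from 7.16 to 7.67 in wild-type to 5.34, 6.92, 5.56 and 5.80 in knockout eWAT (difference -1.58, adjusted p = 0.0123). Mfap5, Fstl1 and Prg4 stayed past the threshold under quantile normalization, with array medians made equal and whichever mouse was left out.

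Among the enzymes that build and modify glycosaminoglycan chains, 6 of 23 fell and 1 rose. The gene that rose was Chst1, which encodes a keratan sulfate sulfotransferase, at 6.74 to 7.33 in wild-type and 8.74, 7.40, 8.23 and 8.56 in knockout eWAT (difference 1.24, standard error 0.262, adjusted p = 0.0164 by limma). Its call was lost without wild-type mouse 2 (adjusted p = 0.0556) or 4 (0.0502). Among receptors and growth factor partners 6 of 14 fell and 1 rose. P2rx7, which encodes an ATP-gated channel that takes part in biglycan signalling, was at -1.39 (adjusted p = 0.0120), and Tgfb1, which encodes the growth factor TGF-beta 1 that decorin binds, was at -1.38 (standard error 0.246, adjusted p = 0.0107). Met, which encodes the receptor of hepatocyte growth factor and also binds decorin, rose by 1.03 (standard error 0.226, adjusted p = 0.0179), a call lost without wild-type mouse 3 (0.0515) or 4 (0.0566). Of the 12 small leucine-rich proteoglycans, 2 fell, both named after their values were seen. Aspn, which encodes asporin and lies in the cluster of Ogn, was at -1.01 (adjusted p = 0.0125), and Tsku, which encodes tsukushi, was at -0.61 (adjusted p = 0.00823). Ecm2, at the other end of that cluster, was at -0.75 (adjusted p = 0.0596).

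**Figure D4:**
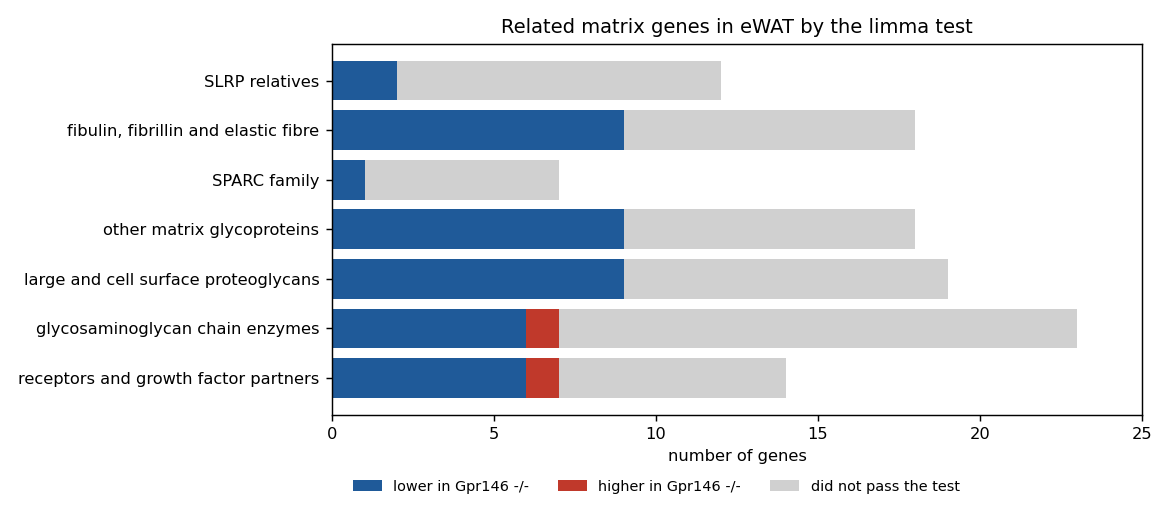
Number of related matrix genes in eWAT that passed the limma test lower (blue) or higher (red) in Gpr146-/- mice or did not pass it (grey), by list. Of 111 genes, 42 fell and 2 rose, with 9 of 18 in the elastic fibre list and 2 of 12 among the small leucine-rich proteoglycans.

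In iWAT and BAT none of the 111 relatives passed the test by limma. Without adjustment 30 of the 111 were under 0.05 in iWAT, where 15.4% of all genes were, and 18 of the 111 in BAT, where 12.7% of all genes were. The smallest p in iWAT belonged to Mfge8 (-1.08), Efemp1 (-1.05) and Dse (-0.89), each with an adjusted p of 0.221, and in BAT to Tgfb1 (-0.48, adjusted p = 0.130), Mfge8 (-0.43, adjusted p = 0.137) and Chst15 (0.45, adjusted p = 0.142).

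Genes of the cells that make or surround this matrix moved with the 10 genes in part. Over all liver genes 0.661% were called by limma and 0.499% were called lower, and the called counts of the liver lists stand beside these shares. In liver 0 of 7 collagen and myofibroblast genes were called by limma and none was under 0.05 without adjustment. Their median difference was -0.13, and their mean was 3.01 to 3.32 in wild-type and 2.90 to 3.30 in knockout mice. Col1a1 and Col3a1 differed by -0.18 (adjusted p = 0.744) and -0.33 (adjusted p = 0.516). Of 9 stellate cell genes 2 were lower, Lrat by -0.77 (adjusted p = 0.0346) and Reln by -1.25 (adjusted p = 0.0184), both calls lost without wild-type mouse 2 or 4 or knockout mouse 1 or 4 (adjusted p up to 0.106) and that of Lrat also without wild-type mouse 3 (0.0647) or knockout mouse 3 (0.0677). Without adjustment 6 of the 9 were under 0.05. In 3 of the 9 every knockout value was below every wild-type value, against 4.16% of all genes. In 1 of the 9 every knockout value was above every wild-type value. The share of all genes for that direction is not given here, so nothing is read from it. The median difference of the 9 was -0.43, and their mean was 4.29 to 4.55 in wild-type and 3.95 to 4.43 in knockout mice. Of 5 endothelial genes 2 were lower, Clec4g by -1.32 (adjusted p = 0.00167) and Cdh5 by -1.08 (adjusted p = 0.0458, between 0.0866 and 0.140 without any single mouse but knockout mouse 2 and 0.0596 after quantile normalization). All 5 were under 0.05 without adjustment, with a median difference of -0.68. In all 5 every knockout value was below every wild-type value, against 4.16% of all genes. Their mean was 5.35 to 5.52 in wild-type and 4.21 to 5.01 in knockout mice. None of 6 macrophage genes was called in liver, though 5 were under 0.05 without adjustment, and their mean was 4.60 to 4.94 in wild-type mice, 4.85 in knockout mouse 2 and 3.93 to 4.26 in the other knockout mice. Of 10 fibroblast and progenitor genes Ly6a alone was lower, by -1.09 (adjusted p = 0.0248, between 0.0692 and 0.0874 without wild-type mouse 2, 3 or 4 or knockout mouse 4), with means of the 10 of 3.93 to 3.98 in wild-type and 3.69 to 3.84 in knockout mice. Of 6 adipocyte genes Cfd was lower by -1.12 (adjusted p = 0.0242) and Cidec by -2.08 (adjusted p = 0.0387), both calls lost without wild-type mouse 2, 3 or 4 or knockout mouse 1, 3 or 4 (adjusted p between 0.0549 and 0.125), and the mean of the 6 was 3.36 to 3.70 in wild-type and 2.90 to 3.27 in knockout mice. The defining adipocyte gene Adipoq was under the table's median, at 2.41 in wild-type and 2.27 in knockout mice. The 5 hepatocyte genes had means of 10.73 to 10.79 in wild-type and 10.75 to 10.77 in knockout mice. The share of all liver genes under 0.05 without adjustment is not given here, so nothing is read from the unadjusted counts of these lists. The part of these cells in the lower Dcn, Ecm1 and Tgfbi was not tested.

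In eWAT 5 of 6 macrophage genes were lower in knockout mice, from -1.56 (Csf1r, adjusted p = 0.0191 by limma) to -3.12 (Trem2, adjusted p = 0.0294), and Clec4f was not called. Over all genes of eWAT 15.2% were called and 10.7% were called lower, and the counts of these lists stand beside those shares. The share called higher is not given here, so nothing is read from the count of higher adipocyte genes. The adjusted p of Trem2 and Gpnmb rose to between 0.0505 and 0.0790 without any single mouse but knockout mouse 2, and that of Emr1, Cd68 and Csf1r to between 0.0510 and 0.0647 without several of them. Their mean was 8.29 to 8.54 in wild-type mice, 8.03 in knockout mouse 2 and 5.37 to 6.62 in the other knockout mice, the same mouse in which Lum, Fbln1, Bgn and Tgfbi were highest. Of 7 collagen and myofibroblast genes 5 were lower, Col1a1, Col1a2, Col3a1, Lox and Timp1, with means of 7.12 to 7.65 in wild-type and 5.93 to 6.91 in knockout mice. Of 10 fibroblast and progenitor genes 5 were lower, Pdgfra, Dpp4, Gas1, Thy1 and Ly6a, with means of 6.34 to 6.59 and 5.62 to 6.25. Of 5 mesothelial genes 2 were lower, Upk3b at -1.62 and, lost without several single mice (adjusted p up to 0.0913), Msln at -0.98, and of 6 adipocyte genes 5 were higher and Lep was lower. None of 5 endothelial genes was called by limma or was under 0.05 without adjustment. Of the genes called in these lists, Col1a1, Dpp4, Upk3b, Adipoq, Cfd, Retn and Lep stayed past the threshold whichever mouse was left out, and each of the others lost its call without at least 1 single mouse. The part of these cells in the eWAT differences was not tested.

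Over the 8 liver arrays, the genes whose values were closest to those of Dcn, after the wild-type mean of each gene was subtracted, were Igfbp7 (root mean square difference 0.396 on the log2 scale), Cd36 (0.416), Plvap (0.425), Hgf (0.456) and Cidec (0.468). Igfbp7 is described above, Cd36 takes up fatty acids, Plvap encodes a protein of endothelial diaphragms, Hgf encodes hepatocyte growth factor and Cidec a lipid droplet protein. Of the 10 genes, Ecm1 came next (0.488), at rank 6, and Tgfbi stood at rank 10 (0.561). This ranking used the same arrays as the choice of Dcn and carries no test.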

How the data were processed

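Total RNA (100 ng, Trizol) from 4 mice per genotype and tissue was labelled with biotin and hybridised to Affymetrix Mouse Gene ST arrays. The authors deposited log2 expression values, in a separate table for each tissue. The normalization method and software, and whether each tissue was normalized alone, are not given in the sources used here. From every file 1 or 2 entries with a blank name or a name turned into a number by a spreadsheet were left out, leaving 24646 genes, 840 of them averages of several probe sets. Array medians were 3.00 to 3.06 in liver. The number of arrays limits the precision. Samples were grouped by the genotype and tissue labels.

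Knockout and wild-type mice were compared within each table with limma 3.58.1 (R 4.3.3), two-sided, with Benjamini-Hochberg adjustment over all genes and a threshold of 0.05. The fit was tested on simulated data. The comparison was repeated with weighted arrays, a robust trended prior, dim genes removed, quantile normalization, equal array medians, the methods' t-test, a block by replicate number and leaving out each mouse. Genes named are the 10 genes, Gpr146, for each tissue the related genes past the threshold with groups apart that moved most (5 up and 5 down, or the 3 smallest p where none passed), the 5 genes most like Dcn in liver, and marker genes beside a result. The genes and lists were chosen with earlier results of these data known. Of 112 related genes listed, 111 were measured. No probe was set against another probe. Promoter sequences and positions are RefSeq's for GRCm38.p6.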

Additional observations from a re-analysis of the deposited data

Results flagged for a closer look

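A value far from the other 3 of its group was found in 3 of 80 groups of 4 mice, where chance gives about 5% of groups. In eWAT, knockout mouse 2 lay far above the other knockout mice for Bgn (8.80, its gap 0.838 of the group's range) and for Tgfbi (7.999, gap 0.907). In iWAT, knockout mouse 1 lay far below the others for Fmod (3.90, gap 0.877). Fmod also differed in opposite directions in 2 tissues, with every knockout value above the wild-type mean in liver (mean difference 0.14) and below it in eWAT (mean difference -0.74). In liver the groups overlapped, and the means of 2.64 in wild-type and 2.78 in knockout mice were under the median of all genes (3.02). This difference between tissues was not tested.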

How the results depend on the processing

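In liver, where the main count of called genes was 4 of the 10 and 2 of the related genes, the methods' t-test gave 7 and 20 without adjustment and 0 and 0 after it. The related count was 4 with array weights, with dim genes left out or with equal array medians, and 1 after quantile normalization. Leaving out 1 mouse gave 0 to 6 and 1 to 11. In eWAT, with 7 (Dcn and Lum included) and 44 called, the adjusted t-test gave 0 and 0, and leaving out 1 mouse gave 4 to 8 and 17 to 62. Dcn and Lum entered the choice in every tissue, and the liver contrast chose the genes, so nothing is read from the counts of the 10. The shares of all genes called under most of these settings are not given here. In iWAT the unadjusted t-test gave 1 and 19, and in BAT 2 and 13, against 0 by limma. A block by replicate number gave 7 of the 10 and 4 related genes in liver, and in eWAT it took Ecm1 out (adjusted p = 0.0785) and Ogn in (0.0344). The numbers were not taken as pairs: deviations of same-numbered mice correlated between -0.385 and 0.669, and not all were over 0.1.

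Near 0, signs turned. Prelp in eWAT was at 0.000684 with array weights, 0.117 after quantile normalization and between -0.175 and 0.0430 with 1 mouse left out. Fmod was at 0.00629 in iWAT and -0.00518 in BAT after quantile normalization, -0.00111 in BAT with equal medians, and its range with 1 mouse left out was -0.0653 to 0.0669 (iWAT) and -0.0449 to 0.0551 (BAT). Ogn in BAT was at 0.0526 with array weights, 0.0506 after quantile normalization and between -0.347 and 0.296 with 1 mouse left out. Leaving out dim genes removed Lum, Fmod, Ogn and Fbln1 from the liver test. With 4 mice per group, differences as small as those of most genes in iWAT and BAT could not be told from the spread.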
